A study of Mus musculus with 24 samples.

Results

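Microglia sorted by fluorescence from the brains of BCAS mice that had received exosomes of either kind were set against microglia of BCAS mice that had received PBS (saline). BCAS stands for bilateral carotid artery stenosis, in which narrowed neck arteries supply the forebrain with less blood. The comparison held 18 of the 24 libraries of the series: 6 from BCAS mice given the exosomes labelled WD-Exos, 6 from BCAS mice given those labelled ND-Exos, and 6 from BCAS mice given PBS (BCAS+PBS). The remaining 6 libraries came from sham-operated mice given PBS (Sham+PBS); they shared the estimate of the spread and are given as levels only. All mice were labelled wild type and day 28. Exosome mice had a tail vein injection of 100 µg every 3 days, and the series title names foam cells, which are lipid-laden macrophages, as the source of the exosomes. The abbreviations WD and ND are not spelled out in the labels, nor are the age and sex of the mice, the batches, or whether each library came from its own mouse. The p-values therefore measure the spread between these libraries, which may be technical. The 2 kinds were weighted equally. By fitted log2 fold change, both kinds lay on the same side of BCAS+PBS for the genes named below, with some exceptions. The kinds lay on opposite sides for P2ry12, Tmem119, Cx3cr1, Lgals3bp, Cxcl9, Gm20594, Tnfrsf1a, Hypk and Pafah1b2. For the markers Trf, Ntsr2 and Vwf the side is not given. Both kinds were set against the same 6 BCAS+PBS libraries, so their directions are not independent of each other.

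Microglia are the resident macrophages of the brain. They survey the tissue, take up debris and vesicles, present antigen and respond to interferon and to stress signals. Exosomes are small vesicles that cells release from endosomes and that other cells can take up, with their lipids, proteins and RNA. Foam cells form when macrophages store more cholesterol than they export.

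Levels are in CPM, the counts of a gene brought to the same total in every library, with TMM scaling for differences in composition. Library totals were alike, at 24277722 to 28892423 counts, and the microglial transcripts were abundant in every library. The lowest, median and highest CPM of the purinergic receptor P2ry12 were 3247, 4581 and 7112 with WD-Exos, 2966, 6577 and 7479 with ND-Exos, and 3962, 5511 and 6425 in BCAS+PBS. The fractalkine receptor Cx3cr1 stood at a median of 4712 CPM with WD-Exos, 4519 with ND-Exos and 4606 in BCAS+PBS, and Tmem119, a surface protein of homeostatic microglia, at 2279, 1470 and 1920 CPM in the same order. The groups overlapped for all 3 genes. The number of genes with a count was 9216 to 10797 with WD-Exos, 9188 to 10605 with ND-Exos and 8515 to 9896 in BCAS+PBS. The exosome libraries averaged 474 more (exact two-sided permutation p = 0.096 over 18564 arrangements). Without BCAS+PBS replicate 1 the difference was 611 (exact permutation p = 0.0314), and without BCAS+PBS replicate 2 it was 607 (exact permutation p = 0.0343). Leaving out any other single library gave differences of 335 to 518 (exact permutation p of 0.0781 to 0.25). The smallest difference came without BCAS+PBS replicate 5. The part of these gene numbers in the results that follow was not tested.

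By edgeR's quasi-likelihood test, 0 of 10219 tested genes (0%) passed an adjusted p of 0.05 in exosomes against BCAS+PBS, and the smallest adjusted p was 0.81. At an unadjusted p under 0.05 there were 373 genes (3.65%), against the 511 that 5% of the tested genes would be. Of these, 209 were higher with exosomes (2.05%) and 164 were lower (1.6%). DESeq2, run on the same counts, called 170 genes, 123 higher and 47 lower, and voom called 0 with 528 at an unadjusted p under 0.05. Of the 170, 166 had a mean below 50 CPM, and 158 had no count in at least 3 of the 18 libraries. Over all tested genes the median log2 fold change was -0.03, with 47.2% of genes higher.

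The kinds lay in the same direction for 350 of the 373 genes and in opposite directions for 23. Among the higher genes 207 of 209 had both kinds above BCAS+PBS, and among the lower genes 143 of 164 had both below. A gene picked on the mean of the kinds tends to have both on the same side, so this count describes the selection and gives no support to it. The test that needs each kind on its own to differ in the same direction takes the larger of the kinds' p-values. It called 0 genes (0%; smallest adjusted p = 1) in edgeR and 75 in DESeq2. In edgeR 159 genes (1.56%) had a larger p under 0.05, of which 151 were higher (1.48%) and 8 lower (0.0783%). WD-Exos alone against BCAS+PBS gave 0 genes (0%) past the threshold and 378 (3.7%) unadjusted. ND-Exos alone gave 2 genes (0.0196%) and 457 (4.47%) unadjusted.

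**Figure D1:**
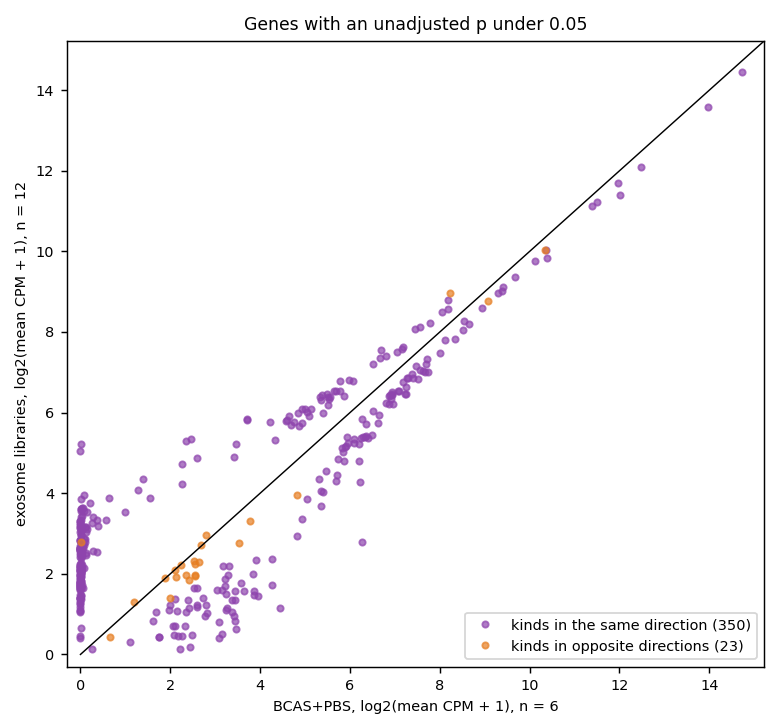
Mean CPM as log2(mean CPM + 1) in the 12 exosome libraries (vertical) against the 6 BCAS+PBS libraries (horizontal) for the 373 genes with an unadjusted p under 0.05, with the line of equal level. Many points above the line stand at the left edge, where BCAS+PBS had almost no counts: 152 of the 209 higher genes had a BCAS+PBS mean below 1 CPM. Of all 10219 tested genes 561 had such a mean.

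Most of the higher genes had almost no counts in BCAS+PBS. Of the 209, 152 had a BCAS+PBS mean below 1 CPM and 67 had no count in any BCAS+PBS library. Of all 10219 tested genes 561 had a BCAS+PBS mean below 1 CPM, and 225 an exosome mean below 1 CPM. The first mean is over 6 libraries and the second over 12, so they do not reach such levels equally easily. Of the 164 lower genes, 22 had an exosome mean below 1 CPM. For genes of this kind a fitted fold change has no stable size, and with amplified reads that carry no molecular identifiers the counts are not independent molecules. Among the 2675 genes with a mean of at least 50 CPM, 97 (3.63%) had an unadjusted p under 0.05, of which 36 were higher and 61 lower, and both kinds went in the same direction for 94. At this level 41.1% of all genes were higher with exosomes. No gene of at least 50 CPM had all 12 exosome libraries above, or all below, the 6 BCAS+PBS libraries (0 of 2675, 0%). The same held at minimum means of 10 CPM (0 of 7054) and 200 CPM (0 of 674).

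Each kind on its own did separate from BCAS+PBS for a few genes, which were chosen here after their values were seen. WD-Exos did so for 4 of the 2675 genes (0.15%). The interleukin-6 receptor chain Il6ra had 134 to 250 CPM with WD-Exos and 38.1 to 133 in BCAS+PBS, and the tumour necrosis factor receptor Tnfrsf1a had 160 to 188 and 86.6 to 155 CPM. The peroxiredoxin Prdx2 had 88.6 to 132 CPM with WD-Exos and 150 to 240 in BCAS+PBS, and Hypk had 35.9 to 53.2 and 54.5 to 93.2 CPM. With ND-Exos the log2 fold changes of these 4 genes against BCAS+PBS were 0.05 for Il6ra, -0.06 for Tnfrsf1a, -0.01 for Prdx2 and 0.20 for Hypk. ND-Exos separated for 7 genes (0.262%): Gm20594 and the translocation factor Sec62 lay above BCAS+PBS, and the actin capping subunit Capzb, Pafah1b2, Lgals3bp, the proteasome activator subunit Psme1 and the glycolytic regulator Pfkfb4 lay below. Some margins were small: the highest ND-Exos and lowest BCAS+PBS values were 236 and 237 CPM for Psme1, and 48.3 and 48.5 for Pfkfb4. They were 584 and 590 CPM for Lgals3bp, whereas Gm20594 had at least 502 CPM with ND-Exos and at most 344 in BCAS+PBS. The WD-Exos log2 fold changes of the 7 were -0.10 for Capzb, -0.06 for Psme1, -0.45 for Pfkfb4, 0.40 for Lgals3bp, 0.03 for Pafah1b2, 0.03 for Sec62 and -0.00 for Gm20594. Whether 4 and 7 genes are more than a random division of the libraries would separate was not tested.

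MHC class I presentation, by which cells show peptides of their own proteins to T cells, had most members at a lower level with exosomes, but no member passed the adjusted threshold. Of 20 members tested, 16 had a lower level with exosomes and 4 a higher one, with a median log2 fold change of -0.19 against -0.03 over all genes. The median was -0.10 with WD-Exos and -0.31 with ND-Exos, and both kinds went in the same direction for 13 members. At an unadjusted p under 0.05 there were 3 lower (H2-D1, B2m and H2-K1) and 0 higher, where 1.6% of all tested genes were lower and 2.05% higher. The upstream sequences of these 3 genes are shown because their levels lay lower together. Each is the 250 bases before the annotated start, taken from RefSeq (GRCm38.p6), 5′ to 3′ on the gene's strand. H2-D1 lies on the plus strand at chr17:35262844-35263093, H2-K1 on the minus strand at chr17:34000348-34000597, and B2m on the plus strand at chr2:122147437-122147686. RefSeq lists 2 starts for H2-K1, and the first is shown. Capitals mark matches, on either strand, to the kappa B letters GGGATTCCC and to 2 spellings of the core of the interferon-stimulated response element, GAANNGAAA and GAAANNGAA. The letters were chosen after these windows had been searched with longer ones.
H2-D1: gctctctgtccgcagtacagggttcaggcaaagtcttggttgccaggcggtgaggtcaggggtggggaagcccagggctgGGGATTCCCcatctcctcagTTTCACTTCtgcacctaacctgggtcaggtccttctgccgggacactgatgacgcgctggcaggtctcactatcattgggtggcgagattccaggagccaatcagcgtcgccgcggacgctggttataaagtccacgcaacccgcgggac
H2-K1: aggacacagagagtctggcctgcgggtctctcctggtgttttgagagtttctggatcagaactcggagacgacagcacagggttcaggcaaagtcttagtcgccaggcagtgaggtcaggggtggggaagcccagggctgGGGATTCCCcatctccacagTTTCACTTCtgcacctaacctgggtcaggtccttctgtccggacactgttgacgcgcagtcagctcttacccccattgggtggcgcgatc
B2m: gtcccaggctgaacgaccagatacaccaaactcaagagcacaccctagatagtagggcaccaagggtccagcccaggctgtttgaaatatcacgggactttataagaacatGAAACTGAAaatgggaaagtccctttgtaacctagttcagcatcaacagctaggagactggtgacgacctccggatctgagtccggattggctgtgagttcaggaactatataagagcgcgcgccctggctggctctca
Both heavy chain windows held 1 match to the kappa B letters and 1 to GAANNGAAA, the second read on the opposite strand, and 0 to GAAANNGAA. The B2m window held 1 match to GAAANNGAA and 0 to the other letters, so which genes had a match depended on the spelling. No matches overlapped. Among 32851 RefSeq promoter windows of 250 bases, 0.301% held GGGATTCCC, 6.31% held GAANNGAAA and 7.13% held GAAANNGAA. A match of letters is a description of the sequence, not evidence of a bound factor.

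The class I heavy chain H2-D1 had 1726, 3137 and 4936 CPM (lowest, median, highest) with WD-Exos, 1881, 2123 and 2565 with ND-Exos, and 2174, 3885 and 6160 in BCAS+PBS. The ND-Exos libraries were close together, whereas BCAS+PBS spread over a wide range and overlapped both kinds. Its log2 fold change was -0.65 (SE 0.19, adjusted p = 0.81 by edgeR), with -0.36 (SE 0.23) for WD-Exos and -0.95 (SE 0.23) for ND-Exos. H2-K1, a second heavy chain, had 918, 1035 and 1415 CPM with WD-Exos, 519, 715 and 948 with ND-Exos, and 678, 1063 and 2551 in BCAS+PBS. BCAS+PBS replicates 5 and 6 stood above all 12 exosome libraries. H2-K1, which was picked outside the naming rule with its values known, had a log2 fold change of -0.59 (SE 0.23, adjusted p = 0.865 by edgeR), with -0.28 for WD-Exos and -0.89 for ND-Exos, and of -0.29 for both kinds without BCAS+PBS replicate 5. H2-D1 and H2-K1 are similar in sequence, so the division of reads between them may be uncertain, which was not tested. B2m encodes beta-2 microglobulin, the light chain shared by all class I molecules. It had 8669, 12310 and 18142 CPM with WD-Exos, 8651, 11860 and 14350 with ND-Exos, and 13210, 16125 and 18921 in BCAS+PBS. Of the 12 exosome libraries 9 lay below every BCAS+PBS library, 4 of them WD-Exos and 5 ND-Exos. B2m had a log2 fold change of -0.40 (SE 0.14, adjusted p = 0.81 by edgeR), -0.32 for WD-Exos and -0.47 for ND-Exos. The medians in Sham+PBS were 2554 CPM for H2-D1, 973 for H2-K1 and 12035 for B2m. Class II presentation genes had 7 of 9 tested members lower, with a median of -0.21 and 0 at an unadjusted p under 0.05.

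**Figure D2:**
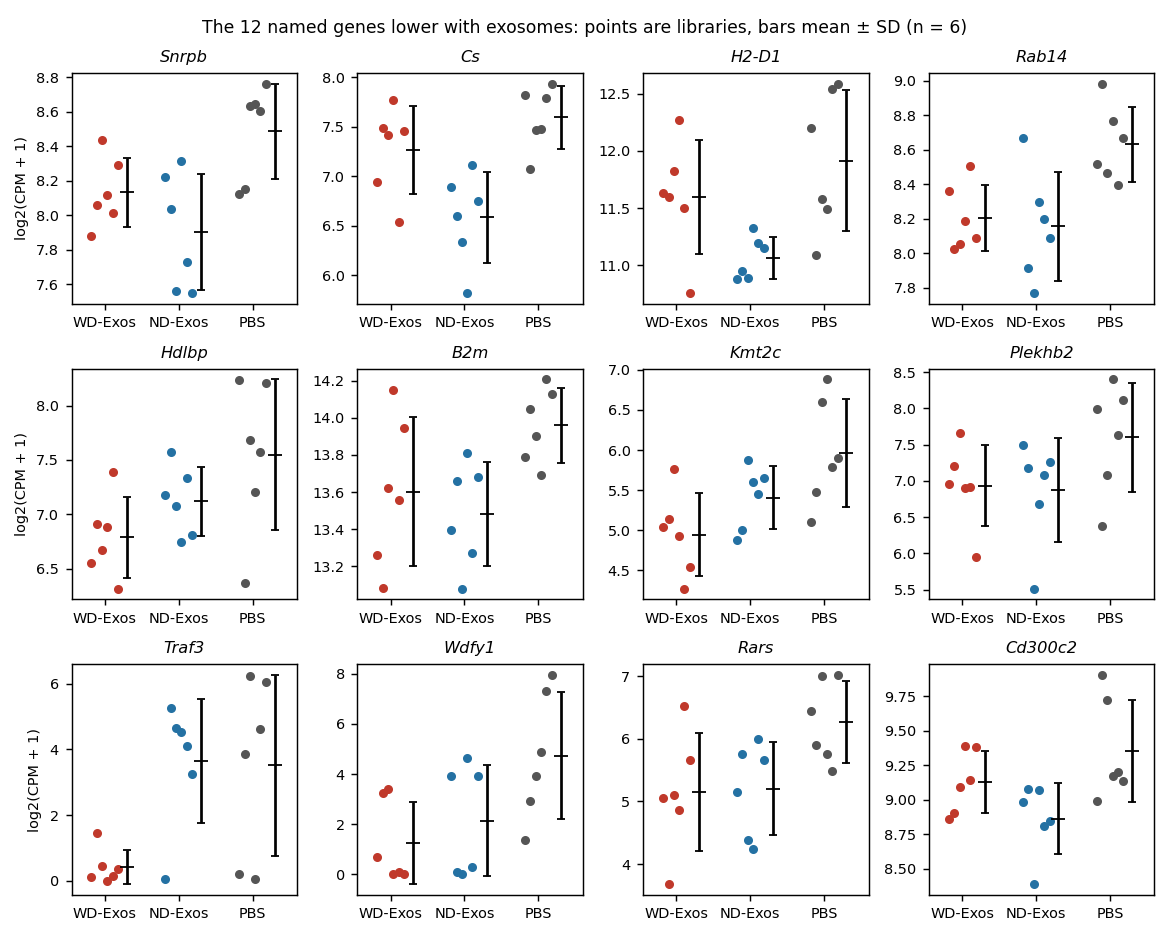
Level of the 12 named lower genes in each library, as log2(CPM + 1), for WD-Exos, ND-Exos and BCAS+PBS from left to right; points are libraries and the bar beside them is the mean and SD (n = 6 a group). For B2m and Rab14 most exosome points lie below the lowest PBS point, 9 and 10 of 12. For Traf3 the WD-Exos points sit at or near 0, as do 1 of the ND-Exos points and BCAS+PBS replicates 1 and 4.

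Interferon response genes had medians on opposite sides of 0 for the kinds. The list had 8 of 30 tested members higher with exosomes and a median of -0.37. With WD-Exos 22 members were above BCAS+PBS and the median was 0.32; with ND-Exos 6 were above and the median was -1.13. The kinds went in the same direction for 14 of the 30. Lgals3bp, a secreted glycoprotein that interferon induces, had 923, 1509 and 3281 CPM with WD-Exos, 289, 352 and 584 with ND-Exos, and 590, 1297 and 1951 in BCAS+PBS. All 6 ND-Exos libraries stood below the lowest BCAS+PBS library and the lowest WD-Exos library. It was the gene passed over when the lower genes were named, since the kinds opposed each other: 0.40 (SE 0.29) for WD-Exos and -1.78 (SE 0.30, adjusted p = 0.0115 by edgeR) for ND-Exos. In WD-Exos against ND-Exos, where 2 genes passed (0.0196%), Lgals3bp had a log2 fold change of 2.18 (SE 0.30, adjusted p = 0.000522 by edgeR). The other was Gm20594, a predicted gene chosen here after its values were seen, with a median of 301 CPM with WD-Exos, 702 with ND-Exos and 302 in BCAS+PBS (-1.21, SE 0.17, adjusted p = 0.000522 by edgeR). Ifi44, an interferon-induced protein, had a count in 2 WD-Exos, 1 ND-Exos and 3 BCAS+PBS libraries, with highest values of 1.89, 1.44 and 25.9 CPM in that order. Gvin1, a very large interferon-inducible GTPase, went the other way and was higher with both kinds. It had 38.5, 49.1 and 93.7 CPM with WD-Exos, 9.57, 51.2 and 90.1 with ND-Exos, and 8, 19 and 44.4 in BCAS+PBS. The log2 fold change of Gvin1 was 1.26 (SE 0.46, adjusted p = 0.838 by edgeR), with 7 of 12 exosome libraries above every BCAS+PBS library.

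Signalling adaptors of innate immunity were found on both sides. Tbk1, the kinase that activates interferon regulatory factors and marks cargo for selective autophagy, was higher with both kinds. It had 37.1, 59.7 and 95.1 CPM with WD-Exos, 31, 67.7 and 115 with ND-Exos, and 18.5, 24.7 and 52.5 in BCAS+PBS. All 12 exosome libraries lay above the BCAS+PBS median and 9 above every BCAS+PBS library. The log2 fold change was 1.12 (SE 0.31, adjusted p = 0.81 by edgeR), 1.03 for WD-Exos and 1.21 for ND-Exos. Sham+PBS had a median of 65.4 CPM. Sh3bp2, an adaptor of immunoreceptor signalling, had 11.1, 48.3 and 63.8 CPM with WD-Exos, 0.0382, 46.1 and 51.9 with ND-Exos, and 0.0433, 2.96 and 10.9 in BCAS+PBS. Of the exosome libraries 11 stood above every BCAS+PBS library, and ND-Exos replicate 6 stood at almost no counts. Sh3bp2 had a log2 fold change of 3.14 (SE 0.97, adjusted p = 0.81 by edgeR), 3.22 for WD-Exos and 3.06 for ND-Exos.

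Traf3, an adaptor of tumour necrosis factor and pattern recognition receptors, had few counts in every WD-Exos library. It had 0, 0.19 and 1.71 CPM with WD-Exos, 0.0357, 19.2 and 37.5 with ND-Exos, and 0.0416, 18.7 and 74.7 in BCAS+PBS. The log2 fold change was -6.12 (SE 1.78) for WD-Exos and -0.71 (SE 1.43) for ND-Exos, and WD-Exos against ND-Exos gave -5.41 (SE 1.72, adjusted p = 0.513 by edgeR). Wdfy1, an adaptor of Toll-like receptor signalling, had 0, 0.347 and 9.5 CPM with WD-Exos, 0, 7.11 and 23.8 with ND-Exos, and 1.6, 21.3 and 247 in BCAS+PBS. BCAS+PBS replicates 5 and 6 stood at 158 and 247 CPM, and without replicate 6 the log2 fold change moved to -3.00 from -3.86. Toll-like receptors and adaptors had 16 of 22 tested members lower and a median of -0.19. Ly86, a cell surface partner of a Toll-like receptor relative, had medians of 2154 CPM with WD-Exos, 2316 with ND-Exos and 2621 in BCAS+PBS (-0.25, SE 0.11, adjusted p = 1 by edgeR). The activating myeloid receptor Cd300c2 had 463, 554 and 670 CPM with WD-Exos, 334, 482 and 540 with ND-Exos, and 508, 581 and 957 in BCAS+PBS, with 6 of 12 exosome libraries below every BCAS+PBS library (-0.38, SE 0.14, adjusted p = 0.831 by edgeR).

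The list medians of inflammatory and immediate early genes lay on opposite sides of 0 for the kinds. Both kinds went in the same direction for 10 of 25 immediate early genes, 9 of 16 NF-kB genes, 7 of 13 cytokines and 10 of 12 chemokines. Immediate early genes, which cells switch on within minutes of a stimulus or of handling, had a median of -0.01 over 25 tested members, with 0.52 for WD-Exos and -0.62 for ND-Exos. The score of the list, the mean log2(CPM + 1) of its members, ran over 4.28 to 8.32 with WD-Exos, 5.40 to 6.01 with ND-Exos and 3.27 to 7.91 in BCAS+PBS. BCAS+PBS replicates 1 and 2 had 6.45 and 7.91, above all ND-Exos libraries, while replicates 5 and 6 had 3.31 and 3.27, below all 12 exosome libraries. NF-kB subunits and feedback genes had a median of 0.49 with WD-Exos and -0.38 with ND-Exos over 16 members. Inflammatory cytokines had 0.33 and -0.17 over 13 members, and chemokines -0.10 and 0.24 over 12. The chemokine Cxcl9 had at most 0.037 CPM in any WD-Exos library, 0, 32.7 and 58.7 CPM with ND-Exos, and 0, 0.0425 and 148 in BCAS+PBS. Its combined log2 fold change of -5.08 became 0.79 with the immediate early score as a covariate. The cytokine subunit Il27 had a count in 3 WD-Exos, 1 ND-Exos and 1 BCAS+PBS library, and the NF-kB regulator Bcl3 in 3, 1 and 0. Complement genes had 10 of 14 tested members lower and a median of -0.18. C2, a component of the classical pathway convertase, had a count in 1 WD-Exos, 3 ND-Exos and 6 BCAS+PBS libraries, with highest values of 8.54, 5.43 and 56.9 CPM. Properdin, Cfp, had a count in 0, 1 and 2 libraries in the same order, and without BCAS+PBS replicate 3, at 21.8 CPM, its log2 fold change was 1.35 in place of -6.86.

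**Figure D3:**
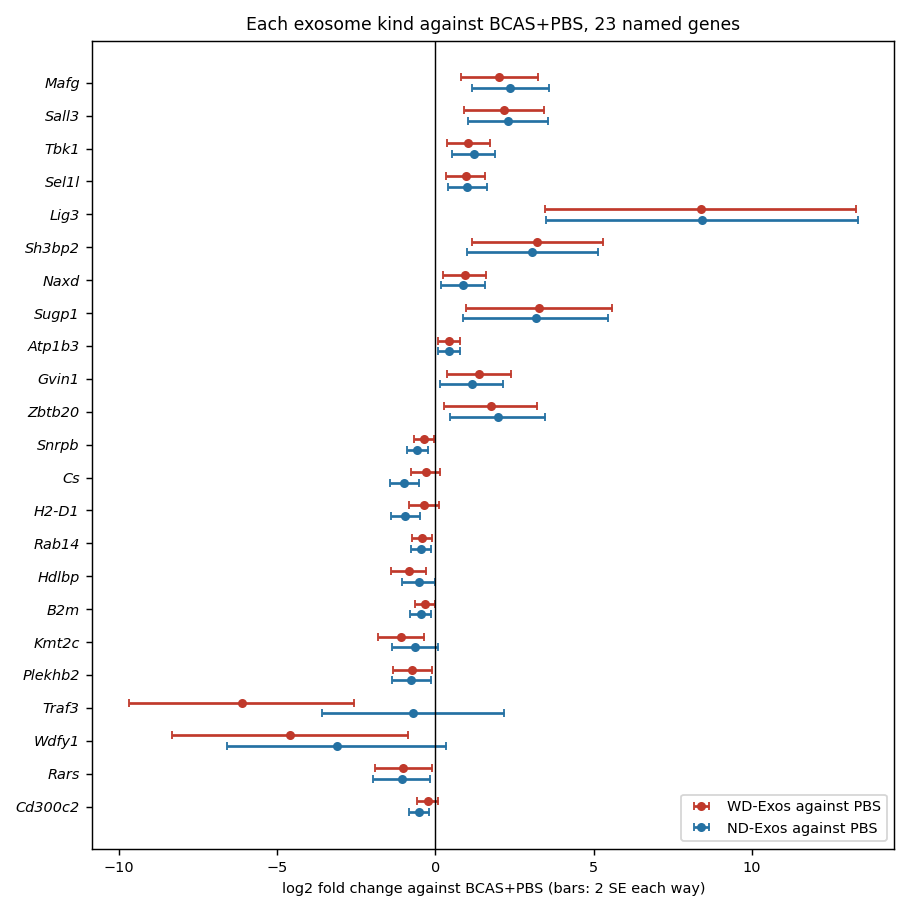
Log2 fold change of WD-Exos (red) and ND-Exos (blue) against the same BCAS+PBS libraries for 23 of the 24 named genes, higher genes above and lower genes below; bars run 2 SE each way. Both kinds stand on the same side of 0 for every gene shown, as the naming rule required, and the bars of Lig3, Traf3 and Wdfy1 are the widest.

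The higher genes with the smallest p included regulators of oxidative stress and protein quality. Mafg, the small Maf protein that pairs with NRF2 at antioxidant genes, had 8.51, 51.5 and 78.3 CPM with WD-Exos, 27.3, 66.2 and 93.2 with ND-Exos, and 3.12, 8.62 and 33.4 in BCAS+PBS. Of the exosome libraries 9 stood above every BCAS+PBS library, and WD-Exos replicate 5, at 8.51 CPM, was the lowest of the 12. The log2 fold change was 2.19 (SE 0.57, adjusted p = 0.81 by edgeR), 2.02 for WD-Exos and 2.36 for ND-Exos. Of 28 NRF2 target genes tested, 18 were higher, with a median of 0.10, of -0.02 with WD-Exos and 0.19 with ND-Exos. Srxn1, sulfiredoxin, had a count in 2 WD-Exos, 3 ND-Exos and 0 BCAS+PBS libraries. Sel1l, the adaptor of the Hrd1 ubiquitin ligase that clears misfolded proteins from the endoplasmic reticulum, had 44.3, 65.5 and 126 CPM with WD-Exos, 43.4, 81.6 and 112 with ND-Exos, and 27.4, 37.3 and 60.2 in BCAS+PBS. Without BCAS+PBS replicate 1 all 12 exosome libraries lay above the rest. For Sel1l the log2 fold change was 0.99 (SE 0.28, adjusted p = 0.81 by edgeR), 0.96 for WD-Exos and 1.01 for ND-Exos. Xbp1, the transcription factor of the unfolded protein response, had 77.3, 197 and 244 CPM with WD-Exos, 104, 145 and 227 with ND-Exos, and 68, 104 and 154 in BCAS+PBS. Xbp1 had a log2 fold change of 0.61 (SE 0.27, adjusted p = 1 by edgeR). Integrated and endoplasmic reticulum stress genes had 10 of 16 tested members higher, a median of 0.05, and 2 at an unadjusted p under 0.05, both higher, as were 2.05% of all tested genes. Chaperones had 14 of 22 lower and a median of -0.10. The chaperonin subunit Cct2 had medians of 119 CPM with WD-Exos, 140 with ND-Exos and 179 in BCAS+PBS (log2 fold change -0.53). Cct8, a subunit of the same chaperonin outside the list, went the other way (0.56). Its means were 237 CPM with WD-Exos, 321 with ND-Exos and 187 in BCAS+PBS.

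**Figure D4:**
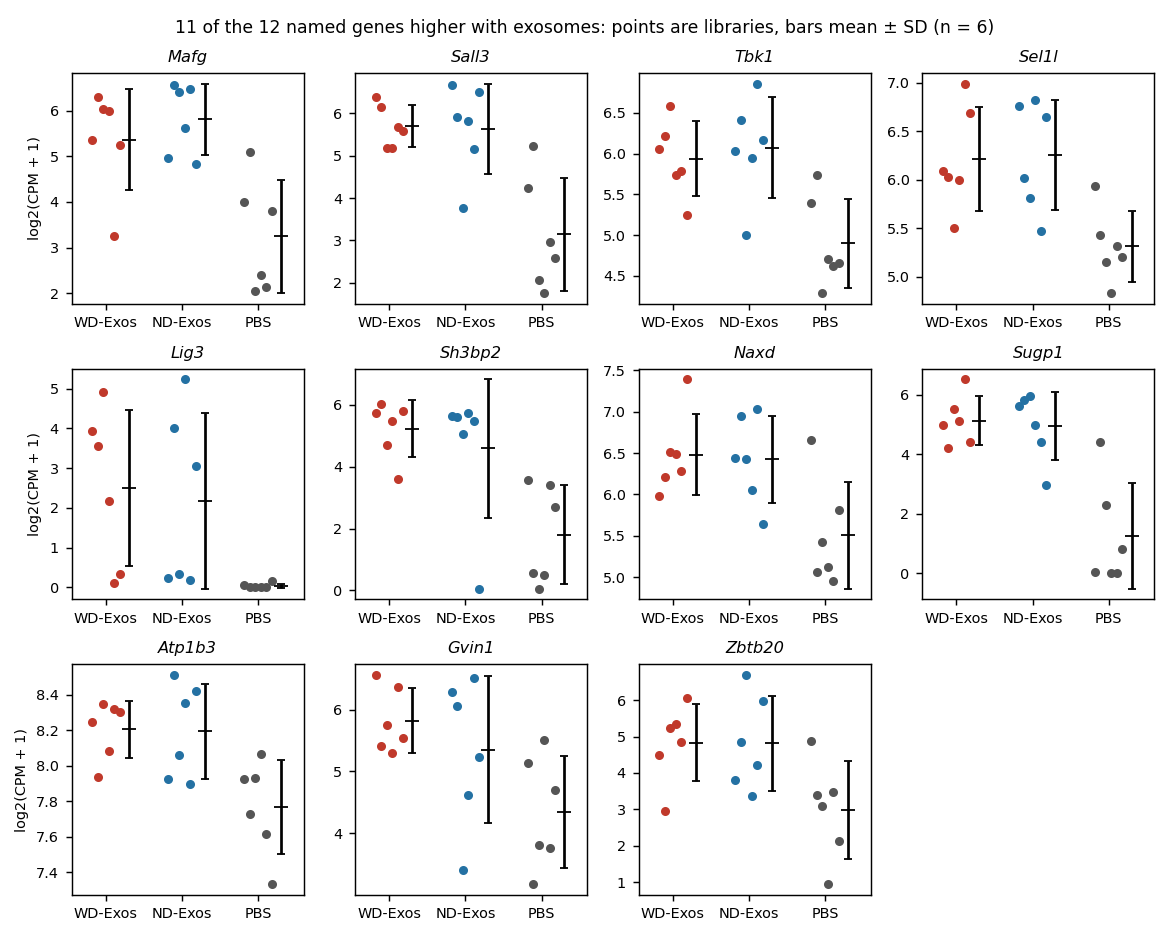
Level of 11 of the 12 named higher genes in each library, as log2(CPM + 1), for WD-Exos, ND-Exos and BCAS+PBS from left to right; points are libraries and the bar beside them is the mean and SD (n = 6 a group). In Tbk1 and Sel1l 9 of 12 exosome points lie above the highest PBS point, and in Lig3 the PBS points lie at or near 0.

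Mitochondrial and metabolic genes gave single genes on both sides and list medians near 0. Ndufab1, the acyl carrier protein of complex I, had medians of 51 CPM with WD-Exos, 80.4 with ND-Exos and 43.6 in BCAS+PBS. Of 37 complex I subunits tested 17 were higher and the median was -0.04, with 9 higher with WD-Exos and 24 with ND-Exos. Complexes II to V had 15 of 40 higher and a median of -0.06. The cytochrome c oxidase subunit Cox6b1 had medians of 283 CPM with WD-Exos, 328 with ND-Exos and 368 in BCAS+PBS (-0.28, SE 0.12, adjusted p = 1 by edgeR). Citrate synthase, Cs, which opens the tricarboxylic acid cycle, had 91.8, 172 and 217 CPM with WD-Exos, 55.4, 101 and 138 with ND-Exos, and 134, 199 and 244 in BCAS+PBS. Of the ND-Exos libraries 5 of 6 stood below every BCAS+PBS library, and of the WD-Exos libraries 2 of 6. Cs had a log2 fold change of -0.65 (SE 0.19, adjusted p = 0.81 by edgeR), -0.31 (SE 0.23) for WD-Exos and -0.99 (SE 0.23) for ND-Exos. WD-Exos against ND-Exos was 0.68 (SE 0.23, adjusted p = 0.524 by edgeR), an interval of 0.23 to 1.14 at 2 SE.

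The cytosolic isocitrate dehydrogenase Idh1 had 39.9, 82 and 130 CPM with WD-Exos, 41.8, 81.1 and 139 with ND-Exos, and 26.9, 46 and 64.8 in BCAS+PBS, and both kinds had close log2 fold changes of 0.85 and 0.83. Tricarboxylic acid cycle genes as a whole had 12 of 27 higher and a median of -0.01. Pfkfb4, which sets the level of an activator of glycolysis, had 41.8, 56.9 and 110 CPM with WD-Exos, 0, 19.8 and 48.3 with ND-Exos, and 48.5, 66.4 and 158 in BCAS+PBS. It was -0.45 for WD-Exos and -2.22 for ND-Exos. Naxd, an enzyme that repairs hydrated NADH and NADPH, had 62.3, 83.1 and 167 CPM with WD-Exos, 48.9, 85.7 and 130 with ND-Exos, and 29.9, 38 and 100 in BCAS+PBS. BCAS+PBS replicate 1 was the library at 100 CPM, and without it the log2 fold change of Naxd moved to 1.24 from 0.90. Atp1b3, a subunit of the sodium and potassium pump, had 244, 308 and 324 CPM with WD-Exos, 237, 296 and 364 with ND-Exos, and 160, 226 and 267 in BCAS+PBS. It had the same log2 fold change of 0.43 with either kind (SE 0.17 each). The difference between the kinds was -0.00, with an interval of -0.34 to 0.34 at 2 SE.

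Lipid handling lists had medians on both sides of 0, and none had a member past the adjusted threshold. Cholesterol efflux and LXR genes had 12 of 19 tested members higher, with a median of 0.15, 0.07 with WD-Exos and 0.17 with ND-Exos. Soat1, which esterifies cholesterol for storage, had 37.6, 66.8 and 81.7 CPM with WD-Exos, 45.2, 102 and 141 with ND-Exos, and 14.4, 41.6 and 76.7 in BCAS+PBS. The log2 fold change was 0.86 (SE 0.34, adjusted p = 0.865 by edgeR), 0.51 for WD-Exos and 1.22 for ND-Exos. Lipoprotein lipase, Lpl, had 65.4, 100 and 132 CPM with WD-Exos, 42, 128 and 172 with ND-Exos, and 23.1, 63.5 and 120 in BCAS+PBS. Of the 12 exosome libraries 11 stood above the BCAS+PBS median, and 4 above every BCAS+PBS library. Its log2 fold change was 0.71 (SE 0.33, adjusted p = 1 by edgeR), 0.56 for WD-Exos and 0.86 for ND-Exos, while Sham+PBS had a median of 136 CPM. Lipid uptake and droplet genes had 11 of 17 lower and a median of -0.19, markers of foam cells and lipid-associated macrophages 10 of 19 lower and -0.08, cholesterol synthesis 13 of 23 lower and -0.04, and fatty acid oxidation 13 of 24 higher and 0.01. The nuclear receptor Nr1d1 had a count in 3 WD-Exos, 2 ND-Exos and 0 BCAS+PBS libraries.

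Endosomal and lysosomal genes had few members with a small p. Rab14, a small GTPase of early endosomes, had 259, 281 and 363 CPM with WD-Exos, 217, 282 and 406 with ND-Exos, and 336, 386 and 505 in BCAS+PBS. Of the 12 exosome libraries 10 stood below every BCAS+PBS library, 5 of each kind. For Rab14 the log2 fold change was -0.45 (SE 0.13, adjusted p = 0.81 by edgeR), -0.43 for WD-Exos and -0.46 for ND-Exos. Plekhb2, a membrane protein of recycling endosomes, had medians of 122 CPM with WD-Exos, 139 with ND-Exos and 226 in BCAS+PBS (-0.75, SE 0.26, adjusted p = 0.81 by edgeR). The cysteine protease cathepsin S, Ctss, had 15372, 23267 and 25107 CPM with WD-Exos, 13620, 24206 and 28054 with ND-Exos, and 24343, 27638 and 29452 in BCAS+PBS. Its log2 fold change was -0.28 (SE 0.11, adjusted p = 0.974 by edgeR), with -0.30 and -0.25 for WD-Exos and ND-Exos. Tyrobp, the signalling adaptor of TREM2, had 2817, 3553 and 4001 CPM with WD-Exos, 2605, 3198 and 3888 with ND-Exos, and 3476, 3751 and 5058 in BCAS+PBS (-0.27, SE 0.10, adjusted p = 0.851 by edgeR). Over the lists, 23 of 36 lysosomal genes were lower (median -0.09), 9 of 17 V-ATPase genes higher (0.03), 21 of 39 ESCRT, tetraspanin and vesicle release genes higher (0.03), and 22 of 42 endocytosis and phagocytosis genes lower (-0.01). Of ESCRT members, Chmp1a had medians of 109 CPM with WD-Exos, 61.1 with ND-Exos and 138 in BCAS+PBS, and Vps25 126, 123 and 159 CPM in the same order. The autophagy gene Wipi1 had a count in 6 WD-Exos, 3 ND-Exos and 0 BCAS+PBS libraries, at most 14.5 CPM, and in 5 Sham+PBS libraries.

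RNA processing and translation made up much of the remaining named genes. Snrpb, a core protein of spliceosomal particles, had 234, 271 and 346 CPM with WD-Exos, 186, 236 and 318 with ND-Exos, and 278, 393 and 433 in BCAS+PBS. BCAS+PBS replicates 1 and 2, at 278 and 283 CPM, stood among the exosome libraries and the other 4 stood above all 12. The log2 fold change was -0.47 (SE 0.13, adjusted p = 0.81 by edgeR), -0.37 for WD-Exos and -0.57 for ND-Exos. The splicing factor Sugp1 was higher, with 17.6, 32.1 and 90.8 CPM with WD-Exos, 6.77, 39.7 and 60.5 with ND-Exos, and 0, 0.392 and 20.1 in BCAS+PBS. Its log2 fold change of 3.21 (SE 1.08, adjusted p = 0.81 by edgeR) became 5.35 without BCAS+PBS replicate 2. Hdlbp, an RNA-binding protein of the endoplasmic reticulum also called vigilin, had medians of 109 CPM with WD-Exos, 139 with ND-Exos and 197 in BCAS+PBS (-0.69, SE 0.22, adjusted p = 0.81 by edgeR). The arginyl-tRNA synthetase Rars had medians of 32.8, 42.2 and 72.7 CPM in the same order (-1.04, SE 0.37, adjusted p = 0.828 by edgeR). Cytosolic ribosomal protein genes had 76 of 82 members lower, but by little: the median was -0.09, -0.10 with WD-Exos and -0.07 with ND-Exos, against -0.05 over the 2675 genes of at least 50 CPM. None had an unadjusted p under 0.05, and 55 went the same way with both kinds. Translation factors had 20 of 37 lower and a median of -0.06. The elongation factor kinase Eef2k had medians of 78.4 CPM with WD-Exos, 42.7 with ND-Exos and 118 in BCAS+PBS, and the initiation factor subunit Eif2s3x 149, 84.1 and 156 CPM. Without BCAS+PBS replicate 6 their log2 fold changes moved to -0.50 from -0.80 for Eef2k and to -0.47 from -0.72 for Eif2s3x.

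Chromatin and DNA-binding factors were the last group. Sall3, a zinc finger transcription factor of the spalt family, had 35.4, 48.6 and 83.1 CPM with WD-Exos, 12.5, 57.2 and 101 with ND-Exos, and 2.37, 5.9 and 36.7 in BCAS+PBS. All 12 exosome libraries stood above the BCAS+PBS median and 8 above every BCAS+PBS library. For Sall3 the log2 fold change was 2.23 (SE 0.58, adjusted p = 0.81 by edgeR), 2.16 for WD-Exos and 2.29 for ND-Exos. The transcriptional repressor Zbtb20 had medians of 32.3 CPM with WD-Exos, 22.5 with ND-Exos and 8.5 in BCAS+PBS (1.85, SE 0.69, adjusted p = 0.838 by edgeR). Kmt2c, a histone H3 lysine methyltransferase, was lower, with medians of 30.6, 45 and 56.6 CPM in the same order (-0.87, SE 0.30, adjusted p = 0.81 by edgeR). The DNA ligase Lig3, which seals breaks in nuclear and mitochondrial DNA, had 0.074, 7.17 and 29 CPM with WD-Exos, 0.145, 3.79 and 36.8 with ND-Exos, and at most 0.107 CPM in BCAS+PBS. It had a count in all 12 exosome libraries, which the naming rule required of a higher gene, so that number is no result. Lig3 had a count in 2 of 6 BCAS+PBS libraries and in 4 of 6 Sham+PBS libraries.

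Among the 24 genes named for the smallest p with both kinds on 1 side, the kinds differed from each other at an unadjusted p under 0.05 (5.33% of all tested genes) in 0 of the 12 higher and 3 of the 12 lower. Those 3 were Cs, H2-D1 and Traf3, with adjusted p of 0.524, 0.649 and 0.513 by edgeR. All 12 higher genes had each kind at an unadjusted p under 0.05 by edgeR, and so did 4 of the 12 lower genes. Of all tested genes 1.48% did so on the higher side and 0.0783% on the lower. DESeq2 called 7 of the 12 higher genes and 1 of the 12 lower, and 170 of all 10219 tested genes. The 24 genes were picked for a small p in the same libraries, so these counts describe the selection and give no support to it. Sham+PBS had a mean above BCAS+PBS for 11 of the 12 higher genes, Mafg and Tbk1 among them, and a mean below BCAS+PBS for 10 of the 12 lower genes, such as B2m and Rab14. The same BCAS+PBS libraries picked these genes, so the side on which Sham+PBS stood is not independent of the choice.

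**Figure D5:**
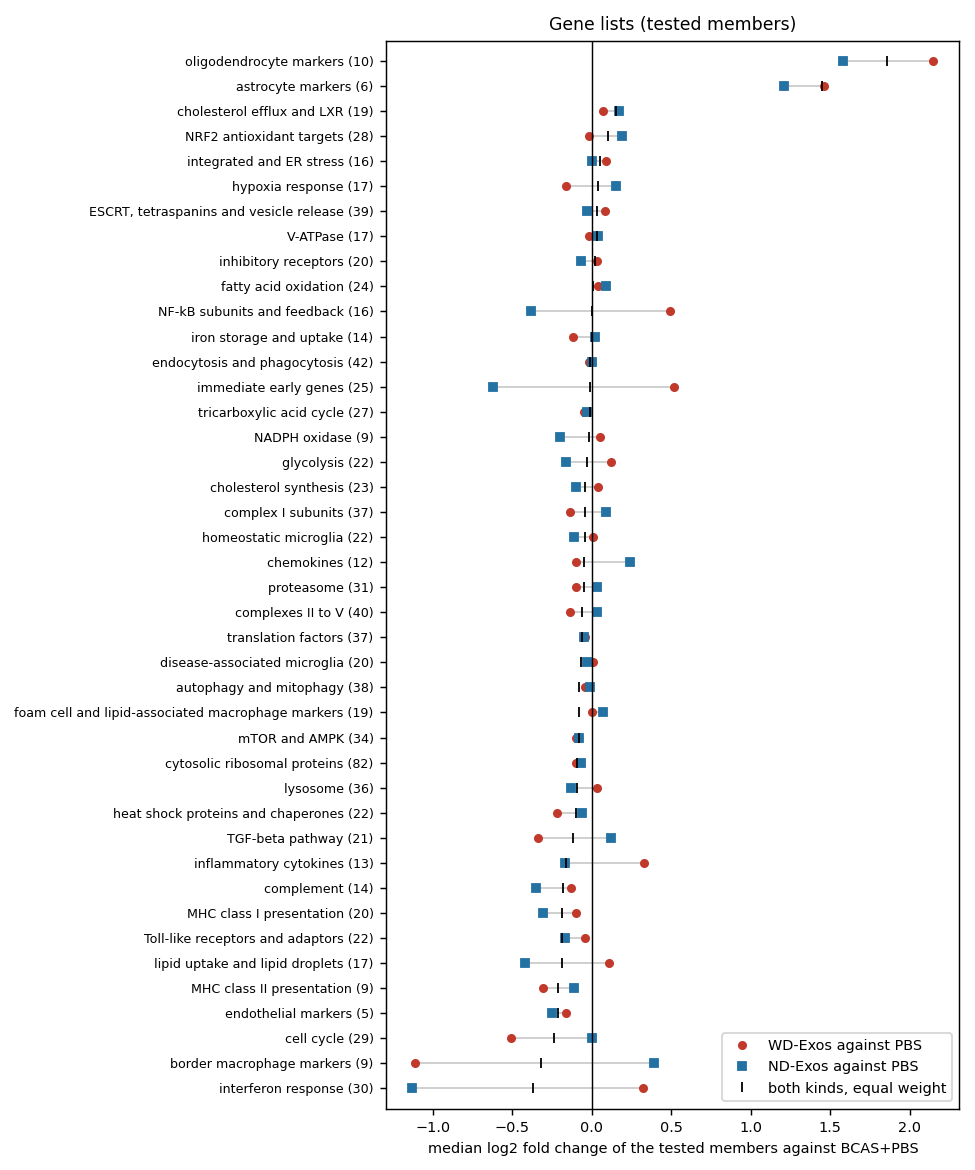
Median log2 fold change against BCAS+PBS of the tested members of the 42 gene lists with at least 5, for WD-Exos (red circles), ND-Exos (blue squares) and both with equal weight (black ticks); tested members are in brackets. Most ticks lie near 0, the kinds lie furthest apart for border macrophage markers, with -1.11 and 0.39, and for interferon response, with 0.32 and -1.13, and oligodendrocyte and astrocyte markers stand highest.

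Across the 42 gene lists with at least 5 tested members the median was below 0 in 32 and above 0 in 10. The kinds' own medians had the same sign in 16 of the 42. Cell cycle genes had 23 of 29 members lower and a median of -0.24, made up of -0.51 with WD-Exos and 0.00 with ND-Exos. Homeostatic microglial genes had 14 of 22 lower (median -0.04) and disease-associated microglial genes 11 of 20 lower (-0.07). None of the 51 lists had a member past the adjusted threshold.

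Markers of other brain cells had counts in all groups. In sorted cells in bulk, more cells of a type and more of its RNA per cell cannot be told apart. Oligodendrocyte markers had 8 of 10 tested members higher, with a median of 1.86, 2.15 with WD-Exos and 1.58 with ND-Exos, and the median was -0.17 without WD-Exos replicate 6. Their summed CPM, over 13 genes, ran over 3525 to 10268 with WD-Exos, 3872 to 8189 with ND-Exos and 1582 to 6089 in BCAS+PBS, and most of it was transferrin, Trf, with medians of 4511, 3808 and 4633 CPM. Astrocyte markers had 5 of 6 tested members higher and a median of 1.45; it was 0.07 over members of at least 50 CPM. Their sum over 13 genes was 129 to 508 CPM with WD-Exos, 101 to 499 with ND-Exos and 54 to 267 in BCAS+PBS, and Ntsr2 had no count in the 18 libraries. Border macrophage markers had 8 of 9 tested members lower (median -0.32, -1.11 with WD-Exos and 0.39 with ND-Exos, and 0.10 for both without BCAS+PBS replicate 1), with sums of 137 to 321, 234 to 940 and 73.8 to 647 CPM. Endothelial markers summed to 64.5 to 142 CPM with WD-Exos, 46.4 to 150 with ND-Exos and 36.2 to 136 in BCAS+PBS, and Vwf had no count. The receptor Flt1 had a count in 3 WD-Exos, 3 ND-Exos and 2 BCAS+PBS libraries, but at most 0.0416 CPM in the last. Neuron markers summed to at most 18.1, 23.1 and 20 CPM in the same order. The part of these cells in the results was not tested.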

How the data were processed

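Per the labels' protocols, microglia were isolated by FACS, and Smart-seq2 was used to amplify cDNA of their total RNA. The authors deposited a table of estimated counts per Entrez gene, not scaled between libraries, and 76.8% of these genes had whole-number values throughout. For the aligner, the counter, the build behind the counts and strand handling the entry is: not given in the sources used here. Of 22064 gene identifiers, 6186 were blank and 15878 had values; 22002 matched a symbol in the RefSeq table of GRCm38.p6, used for names and promoter sequences. No mitochondrial gene had values.

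Estimated counts were rounded and tested with edgeR 4.0.16 (R 4.3.3): filterByExpr with a minimum of 10 counts, TMM factors of 0.936 to 1.17, 1 fit of 4 group means over 24 libraries, robust quasi-likelihood tests of the contrast, Benjamini-Hochberg adjustment and a threshold of 0.05. Intervals are 2 SE each way. The SE of the log2 fold change had a median of 0.271 for genes of at least 50 CPM and of 0.944 for all. Alternatives used DESeq2 1.42.0, limma 3.58.1 and those named in the closing section, and the procedure was tested on simulated data. Detected genes were compared with scipy 1.17.1, and figures drawn with matplotlib 3.10.9.

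The comparison, the 51 gene lists and the rules were chosen with earlier results of these data known. Where fewer than 20 genes passed, the rule named the 12 higher and 12 lower genes of smallest p with an established symbol, counts in all libraries of the higher side and both kinds in 1 direction; 1 lower gene, Lgals3bp, was passed over. It added the 2 members of each list with the smallest p, if under an unadjusted 0.05, which gave 34 more and 58 in all; 2 of these are not reported here. P2ry12, Tmem119 and Cx3cr1 are levels. H2-K1, Gm20594, Cct8 and the genes named for separation between libraries were chosen after their values were seen.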

Additional observations from a re-analysis of the deposited data

Results flagged for a closer look

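Of 189 groups of 6 libraries examined over the named genes and the library measures, 24 held a library far from its group by Dixon's test; chance gives about 1 in 20. Many of these were genes with counts in few libraries. In CPM, the far library and the range of the other 5 were as follows among exosome libraries of genes with counts throughout. Mafg stood at 8.51 in WD-Exos replicate 5, against 37.3 to 78.3. Sh3bp2 stood at 0.0382 in ND-Exos replicate 6, against 32.1 to 51.9. Naxd stood at 167 in WD-Exos replicate 6, against 62.3 to 90.1, and Xbp1 at 77.3 in the same library, against 172 to 244. Lpl stood at 42 in ND-Exos replicate 3, against 106 to 172, and Ly86 at 1484 in that library, against 2218 to 2705. Soat1 stood at 45.2 in ND-Exos replicate 1, against 95.4 to 141. In BCAS+PBS replicate 2, Psmd11, a proteasome subunit, stood at 99.4, against 160 to 203. ND-Exos replicate 3 also had 10605 genes with a count, against 9188 to 9662 in the rest of its group.

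The other far libraries concerned genes near 0. In WD-Exos these were Traf3 at 1.71 CPM, Ifi44 at 1.89, C2 at 8.54 and Rragd, a regulator of mTOR, at 0.0385. In ND-Exos they were Ifi44 at 1.44 CPM, Il27 at 6.72, Bcl3 at 5.59, Cfp at 1.23, C2 at 5.43 and Vtn, vitronectin, at 12.1. In BCAS+PBS they were Lig3 at 0.107 CPM, Il27 at 0.0367, the caveolar protein Cav1 at 0.0406, Cfp at 21.8 and Vtn at 0.0373.

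The kinds differed from each other past the threshold for Lgals3bp and for Gm20594, each with an adjusted p of 0.000522 by edgeR in WD-Exos against ND-Exos. For Lgals3bp WD-Exos was the higher kind, with every WD-Exos library above every ND-Exos library, and for Gm20594 ND-Exos was the higher kind.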

How the results depend on the processing

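Under 30 other settings the count of genes past the threshold in exosomes against BCAS+PBS stayed at 0, except 170 by DESeq2, and the smallest adjusted p ran down to 0.0527 in edgeR and voom. That value came without BCAS+PBS replicates 1 and 2, a setting chosen after seeing the data, as was leaving out the 2 exosome libraries with the most detected genes. For both kinds at once DESeq2 called 75, for ND-Exos 158, for WD-Exos 119 and for WD-Exos against ND-Exos 127. Voom called 1 gene for ND-Exos, 1 for WD-Exos (Pan2) and 4 for WD-Exos against ND-Exos. ND-Exos gave 1 gene (Gm20594) with detected genes as a covariate, 5 without BCAS+PBS replicates 1 and 2, and 1 to 3 when 1 library was left out. WD-Exos against ND-Exos gave 5 with the immediate early score as a covariate, 4 without BCAS+PBS replicates 1 and 2, and 2 to 5 when 1 library was left out. Genes of at least 50 CPM without overlap numbered 8 without BCAS+PBS replicates 1 and 2, and 0 to 1 when 1 library was left out: Sel1l without BCAS+PBS replicate 1, the signalling adaptor Pag1 without replicate 2 and the complex I subunit Ndufb3 without replicate 4. Detected genes differed by 335 to 611. Lists with a median below 0 numbered 18 without BCAS+PBS replicates 1 and 2, 19 by the difference of mean log2(CPM + 1), and 19 to 34 when 1 library was left out. The cause of these shifts was not tested.

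Log2 fold changes changed sign for Cxcl9 (0.79 with the immediate early score as a covariate), Cfp (-9.60 to 1.35 when 1 library was left out, 1.35 being without BCAS+PBS replicate 3) and Rragd (5.41 without BCAS+PBS replicates 1 and 2). The other values of named genes kept their direction, 1733 with the same call and 17 past the threshold, all by DESeq2.

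The labels number the libraries 1 to 6 in each group. Same-numbered libraries of different groups had correlations of -0.159 to 0.2 across genes in their deviations from the group means. These were all positive for WD-Exos and BCAS+PBS (0.039 to 0.2). They ran over -0.159 to 0.105 for ND-Exos and BCAS+PBS, and over -0.064 to 0.025 for WD-Exos and ND-Exos. Whether libraries of the same number share a batch is not in the labels and was not tested. With the replicate number as a block 0 genes passed in exosomes against BCAS+PBS, with 341 at an unadjusted p under 0.05, and 2 genes in ND-Exos against BCAS+PBS. Many genes lacked counts in part of the libraries: 49.8% of tested genes had no count in some of the 18 libraries. The cause of these missing counts was not tested.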
